A study of Xenopus laevis with 13 samples.

Results

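Of 43803 probes on a Xenopus laevis array, 528 (1.21%) were first called at the early tailbud stage, stage 25, and stayed called through stage 40, and 200 bright ones among them are described here. The scanner software flags each spot as well above background or not, and a probe is said here to be called where it has that flag. A probe was eligible where it was not called on any of the 9 arrays from the unfertilized egg to stage 20, was called at stages 25, 30, 35 and 40, and had a log2 signal at stage 40 less than 2 above that at stage 30. With this last limit 393 probes (0.897%) were eligible, and the 200 with the highest mean signal over stages 25 to 40 were taken. Signals are given as log2 of the processed signal after subtraction of the array's own 75th percentile, so that a probe at 0 lies at that percentile and a difference of 1 is 2-fold. The flags of all 13 arrays and the values of stages 25 to 40 chose these probes, and what follows about their own levels is a description without tests.

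RNA came from untreated material, with 1 one-color Agilent array for each of 13 stages: the unfertilized egg, the 2-cell and 16-cell stages, the blastula (stages 8 and 9), the gastrula (stages 10.5 and 12), the neurula (stages 15 and 20), the tailbud embryo (stages 25, 30 and 35) and the tadpole (stage 40). Whole eggs or whole embryos raised in dilute saline were used, and the labels name no treatment, strain or genetic change. No stage had a replicate array, so that spread among batches of embryos is not known and no difference between stages was tested. For 8 of 13 samples the free-text label names another stage than the title, and for stages 25, 30, 35 and 40 it names the sampled stage before. The titles were followed here. The egg to stage 8 lay on slide 1, stages 9 to 15 on slide 2, stages 20 to 35 on slide 3 and stage 40 on slide 4.

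Xenopus embryos live on maternal RNA until the blastula, when their own genes begin to be transcribed. By the late neurula the neural tube is closing and the body axis is laid out. In the tailbud embryo organs start to work: trunk muscle twitches, the heart tube forms and begins to beat, blood islands make red cells, the pronephros (the larval kidney) starts to function, eyes form their lenses, and nerve cells grow axons. The embryo then hatches and becomes a swimming tadpole. Genes first read out in this period are therefore often those of differentiated cells, but in RNA of whole embryos more cells of a type cannot be told apart from more RNA per cell.

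Probes are paired with GenBank accessions in the deposited files, and with no gene names. The 200 probes carried 170 accessions, 141 of them with 1 member probe, 28 with 2 and 1 with 3. Of these accessions, 0 were found in the RefSeq gene table of the Xenopus_laevis_v10.1 assembly and 0 in the study's list of glycogenes. Over all 28256 accessions of the array the counts were 0 and 2, so the members' counts do not show which genes they are. Tissue lists for lens, photoreceptor, striated muscle, blood, liver, kidney, neuron and other cell types could therefore not be set against the probes, and neither a tissue nor a function is given for any of them. For the same reason 4 probes are identified by name, and the others are given by their rank in signal, counts and ranges. Neither probe sequences nor transcript sequences were used here.

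Before stage 25 the 200 probes lay at the bottom of the scale. From the egg to stage 15, 132 to 173 of them had a value within 2% of the spot's error. The software sets such values where a spot is not significantly above background, so most of these early values are not measured signals. The median processed signal, on the linear scale of the scanner, was between 4.09 and 5.40 intensity units on the 8 arrays from the egg to stage 15. It was 6.30 at stage 20, 56.3 at stage 25, 205.8 at stage 30, then 249.2 at stage 35 and 371.6 at stage 40. The lowest signal called on any array was between 13.7 and 23.3 units, so a typical member was well under the calling limit up to stage 20 and several times above it at stage 25. On the normalized log2 scale the median was -7.59 in the egg and between -8.94 and -8.50 from the 2-cell stage to stage 10.5. It was -7.79 at stage 12, -7.84 at stage 15, -7.48 at stage 20, -4.64 at stage 25, -2.91 at stage 30, then -2.59 at stage 35 and -2.19 at stage 40. The members ran from -8.52 to -5.60 at stage 20, where the lowest called probe of the array had -6.20 and 22 members lay above that value without a call. They ran from -6.25 to 0.06 at stage 25, with quartiles of -5.27 and -3.76. At stage 30 they ran from -4.64 to 2.56, at stage 35 from -4.63 to 2.97 and at stage 40 from -6.42 to 3.21.

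Most of these transcripts stayed modest in signal. The mean over stages 25 to 40 had a median of -3.15 and ran from -4.18 to 1.53, with 156 members under -2 and 9 above 0. At stage 25, 1 member was above the 75th percentile of its array, at stage 30, 19 were, and at stages 35 and 40, 23 each. In all, 28 reached it at 1 stage or more, and 1 at all 4. The limit of 200 did not fall at a gap: the last 2 probes taken had means of -4.181 and -4.182, and the next 2, left out, had -4.185 and -4.187.

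How large the step from stage 20 to stage 25 was could be given only as a lower bound, because the stage 20 signals were too weak to measure. The stage 25 signal was set against the higher of the probe's own stage 20 value and the lowest signal called at stage 20. By this bound 145 of 200 probes were at least 2-fold higher at stage 25 than at stage 20, 69 at least 4-fold and 24 at least 8-fold. The median bound was 2.93-fold, the largest was 76.7-fold, and 2 probes had no bound above 1. The median bound was 4.86-fold with scaling to the spike-in probes and 1.38-fold with normexp background correction. Normexp here adds 50 intensity units to each corrected signal, which shrinks ratios of weak signals. Over all probes, 1412 (3.22%) were called at stage 25 and not at stage 20, and 664 (1.52%) were called at stage 20 and not at stage 25. The same bound between the mean of stages 25 to 40 and the mean of the 9 earlier arrays had a median of 8.31-fold and ran from 4.05-fold to 214-fold.

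Signal at stage 20 was not clearly absent for many of these probes, and "switched on at stage 25" may therefore be too strong a name for them. A weaker flag marks spots whose signal is positive and significantly above local background. At stage 20, 136 of the 200 members (68.0%) had it, against 5688 of all 12121 probes not called there (46.9%). On the 8 arrays before, between 29 members (14.5%, egg) and 69 (34.5%, 2-cell stage) had it, in each case a lower share than among all probes not called on that array (35.2% to 46.9%). The members' shares were 32.0% at the 16-cell stage, 28.0% at stage 8 and 25.0% at stage 9, with 25.5% and 29.5% in the gastrula (stages 10.5 and 12) and 31.0% at stage 15. For 42 members stage 20 was the first array with the weak flag, and for 130 it was present on at least 1 of the 8 arrays before. The weak flag was absent on all 9 arrays for 28 members. These counts were not made over all probes and are not read here as early signal. Of the negative control spots, 7.19% had the weak flag at stage 20 and 3.27% to 7.19% on the 8 arrays before.

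The stage 20 array stood apart in its negative controls. The SD of its negative control signals was 25.3 intensity units, against 1.16 to 4.35 on the other 12 arrays. Of its negative control spots 1.31% were called, against 2.61% at stage 35 and fewer on the remaining arrays. How many spots made up this SD was not counted, so it need not describe most of them. The lowest called signal at stage 20, 15.2 units, was under those of 11 other arrays and above the 13.7 of stage 40. The part of this spread in the flags at stage 20 was not tested. Stages 20 and 25 shared a slide, while stages 9 to 15 lay on another. Stage and slide therefore cannot be told apart for the change in the weak flag from stage 15 to stage 20.

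After stage 25 the members went on gaining signal. At stage 30 the median member was 1.65 above its stage 25 value on the log2 scale, with quartiles of 1.09 and 2.42, 199 of 200 members higher and 157 at least 2-fold higher. Among all 31074 probes called on the 4 arrays from stage 25 to stage 40, 5.73% were at least 2-fold higher over this step and the median was -0.01. Over the next steps the gains were smaller. At stage 35 the median member was 0.57 above stage 30, with 34 at least 2-fold higher (2.33% of all called probes) and 5 at least 2-fold lower (1.86%). At stage 40 it was 0.42 above stage 35, with 23 at least 2-fold higher (3.9%) and 14 at least 2-fold lower (2.96%).

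Over the whole span, 169 members were at least 2-fold higher at stage 40 than at stage 25 and 6 at least 2-fold lower. Of all called probes, 14.9% were higher and 14.1% lower by this limit. The median gain of the members was 2.55 on the log2 scale, with quartiles of 1.76 and 3.49, and was 1.27 with normexp. The median gain was 2.13 from stage 25 to stage 35, which share a slide. Because members were ranked on these same 4 arrays and the rule limits the gain after stage 30, these figures show the shape of the chosen probes and are no evidence of their rise.

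The rise after stage 25 can be set beside that of probes with the same flags and limit but another first call. All 393 eligible probes first called at stage 25 gained a median of 1.05 from stage 25 to stage 30, the 575 first called at stage 20 gained 0.58 and the 946 first called at stage 15 gained 0.06. From stage 30 to stage 35 the medians were 0.34 for a first call at stage 25, 0.12 for stage 20, -0.05 for stage 15 and 0.42 for the 187 probes first called at stage 30. From stage 35 to stage 40 they were 0.33, 0.17, -0.03 and 0.39 in the same order. These sets were defined by their flags on the same arrays, and the differences between them were not tested.

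The members did not all follow 1 course, and the stage with the highest signal divided them. The counts were 1 member for stage 25, 32 for stage 30, 36 for stage 35 and 131 for stage 40. With spike-in scaling 17 were highest at stage 35. Among all probes called from stage 25 to stage 40, 31.4% were highest at stage 40 and 40.6% at stage 25. Shares for stages 30 and 35 were not counted over all probes, so the members' counts there are not read as particular to them. Signal increased over each of the 3 steps in 124 members (62.0%), and in 19.7% of all called probes. Of the 131 members highest at stage 40, 45 led the next highest stage by less than 0.5. With stages 25, 30 and 35 alone, 1 was highest at stage 25, 39 at stage 30 and 160 at stage 35.

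The members highest at stage 40 had the lowest median at stage 25. It was -4.87 at stage 25, -3.33 at stage 30, then -2.71 at stage 35 and -2.12 at stage 40. The 36 members highest at stage 35 had medians of -4.50, -2.02, -1.12 and -1.37 at these stages. The 32 members highest at stage 30 had -3.62, -2.05, -2.74 and -3.47. Of these 32, 11 were at least 2-fold higher at stage 40 than at stage 25, 5 at least 2-fold lower and 16 within 2-fold. The single member highest at stage 25 declined at each step, with -3.16, -3.72, -4.25 and -5.21.

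Among the strongest signals of the chosen probes most were highest before stage 40, a pattern that the choice itself favours. The rule left out probes with a log2 signal at stage 40 at least 2 above that at stage 30. The ranking used the mean over stages 25 to 40, which favours probes already high before stage 40. Without the limit on stage 40, 116 of the 200 members stayed among the 200, so brighter probes that rose late had been left out. How far the choice set this pattern was not tested. Of the 12 members with the highest mean signal, 7 were highest at stage 35, 3 at stage 30 and 2 at stage 40. They ran from -2.93 to 0.06 at stage 25, from 0.46 to 2.56 at stage 30, then from 0.42 to 2.97 at stage 35 and from -0.58 to 3.21 at stage 40. At stage 20 they ran from -8.36 to -6.06, and 9 of the 12 had the weak flag there. By the lower bound they were 9.65-fold to 76.7-fold higher at stage 25 than at stage 20, with a median of 19.9-fold.

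The member with the highest mean signal was the only one above the 75th percentile from stage 25 onward. Its normalized log2 signal ran from -8.91 to -7.50 on the 9 arrays up to stage 20, with a median of -8.41. It was 0.06 at stage 25, 2.56 at stage 30, then 2.44 at stage 35 and 1.07 at stage 40. In intensity units this was 1464 at stage 25. The probe lacked the weak flag at stage 20, so its 3.83 units there are a value set by the software and not a measured signal. Its bound for stage 25 over stage 20, 76.7-fold, was the largest of the set. The second highest member had -7.01 at stage 20, -2.14 at stage 25, 1.90 at stage 30, then 2.97 at stage 35 and 2.78 at stage 40. The fourth highest had -6.84 at stage 20 and then -2.18, 1.31, 2.41 and 3.21, the highest single value of any member. In these 3 probes every value from stage 25 to stage 40 lay above every earlier one, as in 199 of the 200 members. The rule largely sets this, since it asked for no call up to stage 20 and for calls from stage 25 on.

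Among the probes that gained most after their first call were Xl#S13590797_3384 and Xl#S27569412_781. Xl#S13590797_3384 ran from -9.22 to -7.65 on the 9 arrays up to stage 20, with a median of -8.49. It was barely called at stage 25, with -6.05, and then had -1.63 at stage 30, -1.35 at stage 35 and 0.20 at stage 40. Its gain from stage 25 to stage 40, 6.25 on the log2 scale, was the largest of the 200, while its bound for stage 25 over stage 20 was 1.11-fold. Xl#S27569412_781 ran from -9.15 to -7.70 up to stage 20, with a median of -8.66, and then had -4.65, 0.29, 1.38 and 1.29 at stages 25 to 40. A second member probe of its accession had -4.64, 0.81, 1.62 and 1.25 at the same stages. For both accessions most of the gain fell between stage 25 and stage 30.

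A small group had fallen from its highest signal by stage 40, in shares not particular to the members. At stage 40, 21 members (10.5%) were at least 2-fold under their highest signal and 8 (4.0%) at least 4-fold, against 15.4% and 3.41% of all probes called at stages 25 to 40. The 8 had median signals of -3.20 at stage 25, -1.44 at stage 30, then -2.74 at stage 35 and -5.14 at stage 40. At stage 40 they ran from -6.42 to -0.01, so not all of them were weak by then. Xl#S18083962_597 ran from -8.60 to -6.67 on the 9 arrays up to stage 20, with a median of -7.72, and then had -3.55, -1.19, -2.42 and -6.40. Its signal at stage 40 was 20.1 intensity units, against 281 at stage 35. Another probe of its accession, first called at the 16-cell stage, fell less. From stage 25 to stage 40 that probe changed by -0.94, against -2.85 in the member. Xl#S13724580_640 ran from -9.18 to -6.70, with a median of -8.67, and then had -3.71, -2.81, -3.15 and -6.42. Both named members were still called at stage 40, where the lowest called value was -6.95, and their stage 40 array lay on another slide than the 3 before.

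Single spots were precise compared with the median gain from stage 25 to stage 40. The error that the scanner software assigns to a spot had a median over the members of 12.1% of the signal at stage 25 and 10.0% to 10.2% at stages 30 to 40. Among 7 spike-in probes with 32 spots each, the SD between spots of 1 array was 0.035 to 0.092 on the log2 scale at stages 25 to 40. The mean of these spike-in probes lay above the 75th percentile on each of these arrays, and most members lay below it. That SD is therefore one of brighter spots than most members. In the 28 accessions with a pair of member probes, the change from stage 25 to stage 40 differed between the probes of a pair by a median of 0.16 and at most 0.69. Both probes of each pair were chosen by the same rule on these arrays. A gain of 1 is larger than any of these, but they describe spots on 1 array and not different embryos. A member and another probe of its accession outside the set could differ by more, as with changes of -2.85 and -0.94 in 1 case. Across 79 such other probes Pearson's r with the members' change was 0.93. The median steps from stage 30 to 35 and from stage 35 to 40, 0.57 and 0.42, were smaller than the largest pair difference.

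Other probes of the same accessions were measured on the same arrays and had not met the rule or its limit of 200. Of the 170 accessions, 127 had more than 1 probe on the array. In 40 of the 127 every probe had the flags of a first call at stage 25, and in 28 of these 40 every probe was a member, so this count follows in part from the choice. Leaving the members aside, 101 other probes remained, on 99 accessions. Of these, 12 had the same flags, a number held down because probes with these flags and a high signal were already members. A first call at stage 20, 25 or 30 was found for 42 of the 101 (41.6%), and for 4.63% of all probes on the array.

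Many of these other probes were called before stage 25, though a smaller share than of all probes. Of the 101 other probes, 69 (68.3%) were called on at least 1 array from the egg to stage 20, against 81.0% of all probes. Called on all 9 of these arrays were 8 (7.92%), against 52.9% of all probes. Before stage 20, 53 of the 101 were called at least once, while 59.0% of all probes were called in the egg alone. The first call came at the egg for 12 (11.9%, against 59.0% of all probes) and at the 2-cell stage for 19 (18.8%, against 8.48%). It came at stage 20 for 16 (15.8%, against 1.81%). Stages 25 and 30 had 13 first calls each (12.9%, against 1.52% and 1.30%). Never called were 4 (3.96%, against 13.9%). Whether an early call came from the same transcript as the member's signal was not tested.

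Where another probe of the accession could be measured at both stage 25 and stage 20, it was mostly higher at stage 25. This held for 53 of 55 such probes, and 40 (72.7%) were at least 2-fold higher. Their median change was 1.91 on the log2 scale, with quartiles of 0.90 and 2.56 and extremes of -0.81 and 5.60. Among all 31018 probes called at both stages, 6.91% were at least 2-fold higher at stage 25, 46.4% were higher, and the median change was -0.04. All 55 were called at stage 20, where no member was, so their change is not a measure of the members' own step. With scaling to the spike-in probes the median over all probes moved by 0.63 between both stages, so this step is stated relative to the other probes of the array.

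The later course was shared as well. Of the 101 other probes, 79 were called at stages 25, 30, 35 and 40. The 22 without a call on all 4 of these arrays are left out here. In 77 of 79 the change from stage 25 to stage 40 had the same sign as in the member probes of the accession. Higher at stage 40 were 74 of the 79, against 45.0% of all called probes. Since 189 of the 200 members were higher at stage 40 too, a shared sign says little by itself. The median change was 2.29 in the 79 probes and 2.28 in their members. At least 2-fold higher were 61 (77.2%) and at least 2-fold lower was 1, where 14.9% and 14.1% of all called probes were. Across the 79 probes Pearson's r between both changes was 0.93, and across the 67 among them that had been called before stage 25 it was 0.92. The points share arrays and accessions, so no p is given. Of the 7 other probes called on all 13 arrays, 5 had a higher mean at stages 25 to 40 than at the egg to stage 20, with a median difference of 1.10 and extremes of -1.64 and 5.99. This count was not made over all probes called on all 13 arrays, so it is not read as part of a shared course.

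As a fact of the whole series, 59.0% of probes were called in the egg and 63.9% to 72.3% on the arrays from the 2-cell stage to stage 20. At stages 25 to 40 the shares were 73.9% to 79.5%, and no member was saturated on any array. First calls that lasted to stage 40 were made for 1425 probes at stage 10.5, 822 at stage 12, 980 at stage 15, 629 at stage 20, 528 at stage 25, then 366 at stage 30 and 158 at stage 35. For stage 25 the limit on stage 40 removed 135 of the 528.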

How the data were processed

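Total RNA of whole eggs or embryos was labeled with Cy3 by the authors and hybridized to Agilent 4x44K frog arrays. They deposited scanner output of Agilent Feature Extraction 10.7.3.1, in which each spot has a background-corrected processed signal intensity on a linear scale, the error of this intensity, median spot and background intensities, and flags. The deposited series table held the same intensity: all 587860 values were equal to the scanner files' within a relative tolerance of 1e-06. Where a spot is not significantly above background, the software sets a value near the error of the spot: 132 to 173 of the 200 members were within 2% of it on the arrays from the egg to stage 15, and 64 at stage 20.

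Of 45220 spots per array 1417 controls were left out. The log2 processed signal minus the 75th percentile of each array was used, after the study's methods, whose floor at 1 was not needed. The code of the rule was run on simulated arrays with planted probes, which checks the code and not the chosen probes. A lower bound divides the later signal by the higher of the probe's earlier signal and the lowest called signal of that array, as means of log2 values where several arrays were averaged. Since each stage had 1 array and the rule used all arrays, no tests were made, and 1 array a stage sets the precision. The members, the comparisons and the lists were chosen with earlier results of these data known.

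By a rule set for naming, probes were to be named by signal, gene list and change after stage 25. With no gene names matched, 4 were printed: the one with the largest gain from stage 25 to stage 40, the probe with the next largest gain, and both probes with the largest declines. The lists (17 tissue lists and the glycogenes) gave no value. Of the 28256 accessions on the array, 0 matched the gene table. An identical accession in the glycogene list was found for 2 of them and for 0 of the members'. The study reports glycogene probes on these arrays, so these counts show how few identifiers matched and not which genes the array holds. Promoters were not analysed.

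Alternatives were scaling to the array median, to 7 of 10 spike-in probes and by quantiles, normexp on median intensities (no mean spot intensity was used) with an offset of 50, other flags, ranks and limits, and 1 value per accession. Python 3.11.15, numpy 2.4.6, pandas 2.3.3, R 4.3.3 and limma 3.58.1 (normexp only) were used.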

Additional observations from a re-analysis of the deposited data

How the results depend on the processing

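Most of the 54 alternative values are counts, which have no direction, and the medians are of probes chosen by their flags. That 0 of the 54 changed direction was thus largely fixed in advance. For 32 of them the move was within 1.5 times for a count of probes or, for a median, within the SD between spots of a spike-in probe (median 0.060 on the log2 scale). These include 528 eligible probes without the limit on stage 40, and 149 members kept when probes were ranked by stage 25 alone. The cause of the others was not tested except where their construction shows it.

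The number of eligible probes, 393, was 363 to 450 under the other scalings. With the weaker flag in place of the call it was 123, and 28 of the 200 members were kept, because the rest had that flag on an array up to stage 20. Without the limit on stage 40, 116 of the 200 members stayed among the 200. Other scalings kept 158 to 192.

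The median lower bound of stage 25 over stage 20, 2.93-fold, was 2.72-fold with scaling to the median, 2.66-fold by quantiles, 4.86-fold with spike-in scaling and 1.38-fold with normexp. It was 1.91-fold over all eligible probes and 2.22-fold over the 64 members without the weak flag at stage 20, a setting chosen after seeing the data. Relative to the mean of the spike-in probes, the 75th percentile lay at -1.43 at stage 25, against -2.16 at stage 20.

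The median gain from stage 25 to stage 40, 2.55, was 2.37, 2.71, 3.02 and 1.27 with scaling to the median, by quantiles, to spike-ins and with normexp. Over all eligible probes it was 1.61. For the 64 members without the weak flag it was 3.03 and with stage 35 in place of stage 40 it was 2.13, both chosen after seeing the data.

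Members highest at stage 35 numbered 17 in place of 36 with spike-in scaling, and 160 with stage 40 left out. Over all 393 eligible probes, 8, 81, 68 and 236 were highest at stages 25, 30, 35 and 40.

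Restricting other probes to the same accession was not run apart, since no gene names were matched. No paired analysis was possible because no stage had more than a single array.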

Other observations

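The members were spread over the array. With each array cut once across and once down, 51, 41, 58 and 50 of the 200 members lay at the upper left, upper right, lower left and lower right, where 25.3%, 24.7%, 25.3% and 24.7% of all probes lay.

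The accessions of 84 members (42.0%) begin with BC, the GenBank prefix of full-length cDNA clone projects, against 30.6% of all probes. Among the 26863 other probes called at stages 25 to 40 with a mean signal no lower than the lowest member, 42.0% had such accessions. That set has no upper limit of signal and was not matched to the members' levels.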
